A study of Mus musculus with 4 samples.

Results

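The miR-106a-363 cluster is a run of 6 microRNA hairpins on mouse chromosome X that lies at the 3' end of the non-coding transcript Kis2. Its paralogue miR-17-92 lies inside the non-coding transcript Mir17hg on chromosome 14. The members were the rows of the deposited count files named Kis2, Mir106a, Mir18b, Mir20b, Mir19b-2, Mir92-2, Mir363 and Mir17hg, matched by Ensembl identifier. They made up 8 of 43629 gene identifiers, and all 8 passed the filter on low counts that left 17022 genes. They were selected on their measured counts in knockout against wild-type cells in these same libraries, so every knockout to wild-type value of a member below is a description and carries no test. Of the 8, 6 passed the filter with at most 10 counts in any wild-type library, so that only their knockout counts could have carried them through.

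Poly(A) RNA was sequenced from mouse embryonic stem cells of 129/Ola background kept in serum with LIF. The 2 Drosha knockout libraries carry alleles made with paired CRISPR/Cas9 cuts. KO1 lacks the proline-rich region of Drosha and KO2 lacks its arginine/serine-rich region. Both were at passage 7, with the undefined mark d5 in their titles. The 2 wild-type libraries came from the line E14 at passage 33 (WT1) and passage 42 (WT2), and their titles describe them as used before. Each knockout allele is thus represented by a single library. The 2 knockout libraries differ in allele and the 2 wild-type libraries in passage. The labels do not say whether each allele is 1 clone, or how far the cultures within a group were otherwise independent. Genotype, passage and the origin of the libraries cannot be told apart, and p-values here measure no more than the variation among these samples, possibly only technical.

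Members of both clusters are made from long capped and polyadenylated transcripts, the primary microRNAs. In the nucleus DROSHA, with its partner DGCR8, cuts each hairpin out of such a transcript, and DICER1 then cuts the hairpin to the mature microRNA. The miR-17-92 family is known for promoting proliferation and survival, is driven by MYC and E2F factors, and is abundant in embryonic stem cells. Kis2 was named as a site of retroviral integration in mouse T cell leukaemia. Poly(A) libraries of long RNA do not capture mature microRNAs, so counts over a hairpin here come from longer transcripts that still contain it or run into it.

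The 6 hairpins of chromosome X yield microRNAs of 4 seed families, which are shared with the paralogous clusters. The seed, bases 2 to 8 from the 5' end, is the part that pairs with targets and is shown in capitals. The sequences are from RefSeq (GRCm38.p6), and each family is printed to show which products of the X-linked cluster have a counterpart elsewhere. The seed AAAGUGC is shared by 6 of them.
miR-106a-5p (chromosome X): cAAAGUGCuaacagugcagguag
miR-20b-5p (chromosome X): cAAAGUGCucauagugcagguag
miR-17-5p (chromosome 14): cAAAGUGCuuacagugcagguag
miR-20a-5p (chromosome 14): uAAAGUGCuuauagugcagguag
miR-106b-5p (chromosome 5): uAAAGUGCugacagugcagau
miR-93-5p (chromosome 5): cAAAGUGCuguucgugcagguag

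Counted from the 5' end, miR-106a-5p differs from miR-17-5p by the single substitution U10A, written with the base of miR-17-5p first. Likewise miR-20b-5p differs from miR-20a-5p by U1C and U10C. The seed AAGGUGC belongs to the miR-18 pair, where miR-18b-5p differs from miR-18a-5p by A18U and A20U.
miR-18b-5p (chromosome X): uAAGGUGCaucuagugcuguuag
miR-18a-5p (chromosome 14): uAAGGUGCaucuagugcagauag

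The seed GUGCAAA belongs to miR-19 and the seed AUUGCAC to miR-92a, miR-363 and miR-25. Both miR-19b-3p and miR-92a-3p are made from 2 genes each, 1 on chromosome X and 1 on chromosome 14, with 1 and the same mature sequence.
miR-19b-3p (chromosomes X and 14): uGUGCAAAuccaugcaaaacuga
miR-19a-3p (chromosome 14): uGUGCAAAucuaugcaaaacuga
miR-92a-3p (chromosomes X and 14): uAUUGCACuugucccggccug
miR-363-3p (chromosome X): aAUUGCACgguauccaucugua
miR-25-3p (chromosome 5): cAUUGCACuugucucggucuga

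The X-linked unit is transcribed from the minus strand. Kis2 (ENSMUSG00000086173, build mm10, chrX:52742563-52744960) is annotated with 4 spliced transcripts and 2135 exonic bases. The hairpins follow its 3' end in the order Mir106a, Mir18b, Mir20b, Mir19b-2, Mir92-2 and Mir363, and together span 875 bases (chrX:52741693-52742567). Of the 4 Kis2 transcripts, 3 end at position 52742563, which is also the first base of miR-106a-5p, and the fourth ends at 52742565. The exons of Kis2 thereby cover only the first 5 bases of the Mir106a hairpin, and the other 5 hairpins lie outside any annotated exon of their strand. The hairpin is printed with those 5 bases in capitals, since this boundary separates the Kis2 counts from the counts of the cluster.
Mir106a hairpin (chrX:52742503-52742567, minus strand): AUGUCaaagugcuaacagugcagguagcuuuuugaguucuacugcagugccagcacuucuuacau

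Mir18b, the next hairpin, starts 149 bases downstream of Kis2, and Mir363, the last, starts 795 bases downstream. Gaps of 46 to 138 bases separate neighbouring hairpins and belong to no annotated gene, so that reads confined to a gap entered no count. Mir18b and Mir363 are printed with their annotated mature arms in capitals, as the hairpins of the cluster with the highest knockout counts.
Mir18b hairpin (chrX:52742331-52742413, minus strand): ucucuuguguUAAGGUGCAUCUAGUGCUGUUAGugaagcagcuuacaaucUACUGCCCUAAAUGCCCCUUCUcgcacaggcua
Mir363 hairpin (chrX:52741693-52741767, minus strand): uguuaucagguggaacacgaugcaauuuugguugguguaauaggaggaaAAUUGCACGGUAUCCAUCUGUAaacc

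Values are CPM, counts scaled to a common library size after TMM scaling, a correction that assumes most genes unchanged. Library totals lay between 29264632 and 42322129 counts, so a single count was worth 0.0236 to 0.0342 CPM before scaling. All 10 embryonic stem cell markers were present in every library, from 48.4 to 2292 CPM. Their median log2 fold change was -0.01, with 5 of the 10 above 0. Utf1 alone had an edgeR adjusted p under 0.05, with a mean of 283 CPM in the knockouts against 65.6 CPM. Its fitted log2 change was 2.11 ± 0.31 (SE; edgeR adjusted p = 0.0482), and 0.55 after adjustment of each library for GC content and gene length. An adjusted p of 0.0482 was the smallest over all genes tested, so every edgeR call here lay between it and 0.05. Genes that share this value are not ranked by it. Drosha, the targeted gene, stood at 158 CPM in each knockout and at 364 (WT1) and 357 CPM (WT2). It fell, with a fitted log2 change of -1.19 ± 0.11 (SE; adjusted p = 0.0482 by edgeR). Its counts cover the whole gene and do not show the deleted segment. Between the knockout libraries the counts varied 2.26 times as much as sampling noise (chi-square per degree of freedom over 14837 genes), against 167 times between the wild types. The knockout libraries therefore differed more than repeat counts would but far less than the wild types did, and the wild-type pair carries nearly all of the spread.

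Kis2 RNA was low in both wild-type libraries and higher in both knockouts. KO1 gave 327 counts and KO2 gave 421, beside 7 for WT1 and 10 for WT2. In CPM these were 10.6, 9.49, 0.175 and 0.278. Both knockout libraries lay far above both wild types, and the mean was 10.04 ± 0.785 CPM against 0.227 ± 0.0724 CPM (SD, n = 2 each), 44.3 times as high. The ratio of summed counts was 44.4 with an exact 95% interval of 27.6 to 76.7, which covers counting error only, as do all count intervals here. The fitted log2 fold change was 5.46 ± 0.33 (SE), the 30th highest of 17022 genes. In bulk RNA, more cells with Kis2 and more Kis2 RNA per cell cannot be told apart. The counts measure RNA present, and whether transcription of Kis2 or removal of its RNA differed was not tested.

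The first 4 hairpins, in the order of transcription, were at or next to 0 in the wild types. Mir106a, of the miR-17 seed family, had 33 and 48 counts in KO1 and KO2 (1.07 and 1.08 CPM) and no count in either wild type. Mir20b, of the same family, had 43 and 45 counts (1.39 and 1.01 CPM) and again none in the wild types. With 3 counts allowed per wild-type library where none was seen, Mir106a was at least 13.6-fold higher and Mir20b at least 15.2-fold higher in the knockouts. A count of 0 in WT1 allows up to 0.0751 CPM and in WT2 up to 0.0833 CPM.

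Mir18b, of the miR-18 family, had 88 and 106 counts in the knockouts (2.85 and 2.39 CPM) and 1 count in each wild type. The ratio of summed counts was 97.9 with an interval of 26.7 to 814. Mir19b-2, of the miR-19 family, had 58 and 83 counts in the knockouts (1.88 and 1.87 CPM), 0 in WT1 and 1 in WT2. Its ratio of 142 has an interval of 25.1 to 5661. For both genes the lower bound is the informative end, since 1 or 2 wild-type counts carry the denominator.

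The last 2 hairpins, both of the miR-92 seed family, kept counts in the wild types. Mir92-2 had 48 and 62 counts in KO1 and KO2 and 6 and 3 in WT1 and WT2, where 3 counts are 0.0833 CPM. Its ratio of summed counts was 12.3 (interval 6.27 to 27.7). Mir363 had 102 and 155 counts in the knockouts (3.31 and 3.49 CPM) and 12 and 27 in the wild types (0.301 and 0.750 CPM), a ratio of 6.65 (interval 4.74 to 9.57). Mir363 was the highest hairpin in every library, and its wild-type levels were above those of Kis2 itself before any correction for length. Mir92-2 and Mir19b-2 have copies on chromosome 14 with the same mature sequence, and how reads that match both copies were assigned is not given in the sources used here, so their counts are uncertain.

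Mir17hg, the host of the paralogous cluster (ENSMUSG00000089726, chr14:115042879-115046727, plus strand, 3536 exonic bases), was abundant in all libraries. KO1 stood at 132 CPM and KO2 at 133 CPM, while WT1 stood at 42.7 CPM and WT2 at 79.2 CPM. The groups did not overlap, but on a log scale the wild types stood further from each other than WT2 stood from the knockouts. The mean was 132.8 ± 0.456 CPM against 60.9 ± 25.8 CPM (SD, n = 2 each), 2.18 times as high, and the fitted log2 fold change of 1.12 ± 0.33 (SE) ranked 2051st. Without WT1 it was 0.75 and without WT2 it was 1.65.

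**Figure D1:**
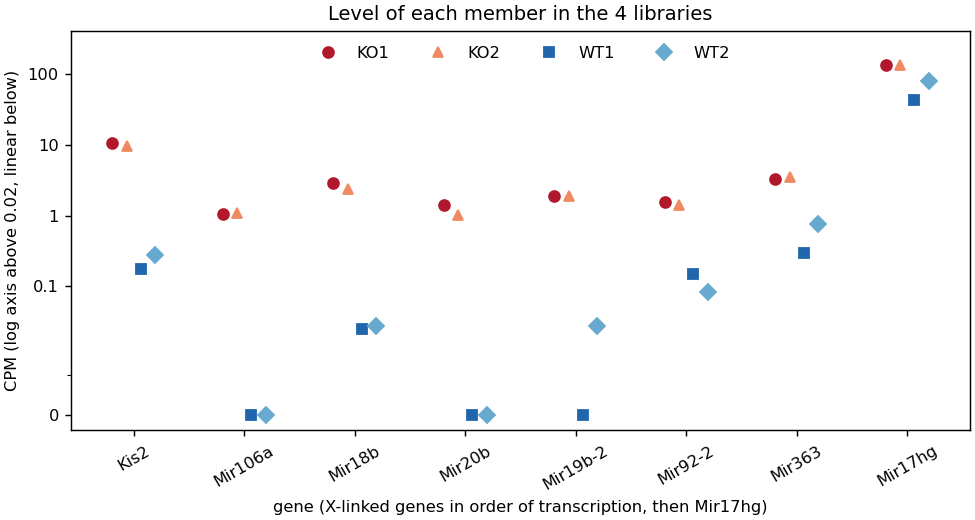
CPM of the 8 genes (x axis, X-linked genes in order of transcription and then Mir17hg) in KO1, KO2, WT1 and WT2, 1 point per library. The y axis is logarithmic above 0.02 CPM and linear below. For all 8 genes both knockout points lie above both wild-type points, and Mir106a and Mir20b are at 0 in both wild types.

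Both knockout libraries lay above both wild types for all 8 genes, as they did for 36.5% of the 17022 genes tested, and the fitted change was above 0 for all 8, as for 49.2% of genes. In the edgeR quasi-likelihood fit over all genes, 6 of the 8 had an adjusted p under 0.05, where 3.51% of genes were called higher and 5.45% in either direction, and Mir363 and Mir17hg did not. No member was called with KO1 left out, and 2 were with KO2 left out. Since this contrast chose the members, nothing is read from either count. The median log2 fold change of the 8 was 5.96, or 3.84 with Mir106a and Mir20b at their lower bounds, beside -0.02 for all genes tested.

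Between the 2 knockout alleles the members were close. Per library total, the KO2 level over the KO1 level was 0.890 for Kis2 (interval 0.769 to 1.03) and 0.999 for Mir17hg (interval 0.960 to 1.04). The hairpins ranged from 0.724 for Mir20b to 1.05 for Mir363, and the interval of each of the 8 genes included 1. Differences of this size were not detectable at the depth of the hairpins. The wild-type libraries were further apart, with a WT2 over WT1 ratio of 1.70 for Mir17hg (interval 1.60 to 1.80) and 2.28 for Mir363 (interval 1.12 to 4.93). For Kis2 it was 1.45 (interval 0.497 to 4.48) on 17 counts, which does not resolve a difference.

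Levels per length set the X-linked and chromosome 14 units side by side. Mir17hg had 37.5 and 37.6 CPM per kb of exon in KO1 and KO2, and Kis2 had 4.96 and 4.44. In WT1 and WT2, Mir17hg had 12.1 and 22.4 CPM per kb and Kis2 had 0.0821 and 0.130. On this scale Mir17hg stood 7.55 and 8.47 times above Kis2 in the knockouts, and 147 and 172 times above it in the wild types. The order of the hosts was thus the same in every library, with a distance between them that was smaller in both knockouts.

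A ratio within a library needs no scaling between libraries. The 6 hairpins together had 1.14 counts for each Kis2 count in KO1 (interval 0.978 to 1.32) and 1.19 in KO2 (interval 1.04 to 1.35). In WT1 the value was 2.71 (interval 1.09 to 7.64) and in WT2 it was 3.20 (interval 1.53 to 7.30), on 7 and 10 Kis2 counts. The knockout ratio over the wild-type ratio, on summed counts, was 0.388. Both wild-type values were above both knockout values, although the interval of WT1 overlaps those of the knockouts.

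This balance differed by position. The first 4 hairpins had 0.679 (KO1) and 0.670 (KO2) counts per Kis2 count, and 0.143 (WT1) and 0.200 (WT2) in the wild types, on 1 and 2 counts. The intervals of the single wild-type libraries, 0.0032 to 1.11 and 0.0213 to 0.939, include the knockout values. On summed counts the wild types had 0.176 (interval 0.0331 to 0.610, on 3 hairpin counts) and the knockouts 0.674 (interval 0.601 to 0.755). Mir92-2 and Mir363 had 0.459 and 0.515 counts per Kis2 count in the knockouts, and 2.57 (interval 1.02 to 7.28) and 3.0 (interval 1.43 to 6.88) in the wild types. Relative to Kis2, the wild types were thus lower than the knockouts over the first 4 hairpins and higher over the last 2. These ratios use the counts that chose the members and are a description, as are the shares that follow.

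**Figure D2:**
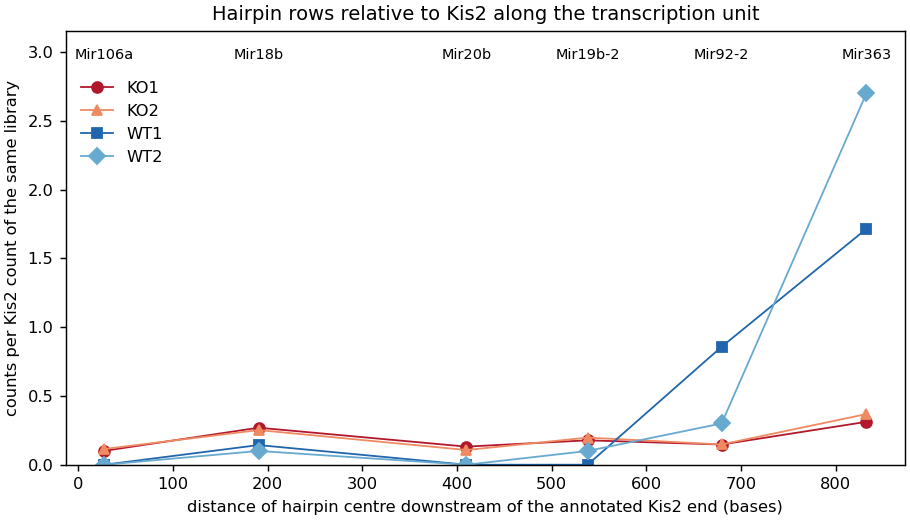
Counts of each hairpin per Kis2 count of the same library (y axis) against the distance of the hairpin centre downstream of the annotated Kis2 end in bases (x axis), 1 line per library. KO1 and KO2 stay under 0.4 throughout, while WT1 and WT2 are at 0 to 0.143 over the first 4 hairpins and reach 1.71 and 2.70 at Mir363.

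The same counts as shares of the cluster show where its reads lay. Of 372 hairpin counts in KO1, 59.7% fell on the first 4 hairpins (exact 95% interval 54.5 to 64.7), and of 499 in KO2, 56.5% did (interval 52.0 to 60.9). In the wild types the shares were 5.26% of 19 counts (interval 0.133 to 26.0) and 6.25% of 32 counts (interval 0.766 to 20.8). The groups did not overlap and neither did the intervals. Mir363 alone took 27.4% and 31.1% in the knockouts, and 63.2% (interval 38.4 to 83.7) and 84.4% (interval 67.2 to 94.7) in the wild types. Wild-type reads of the cluster therefore lay mostly on its last hairpin, and knockout reads were spread over all 6.

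**Figure D3:**
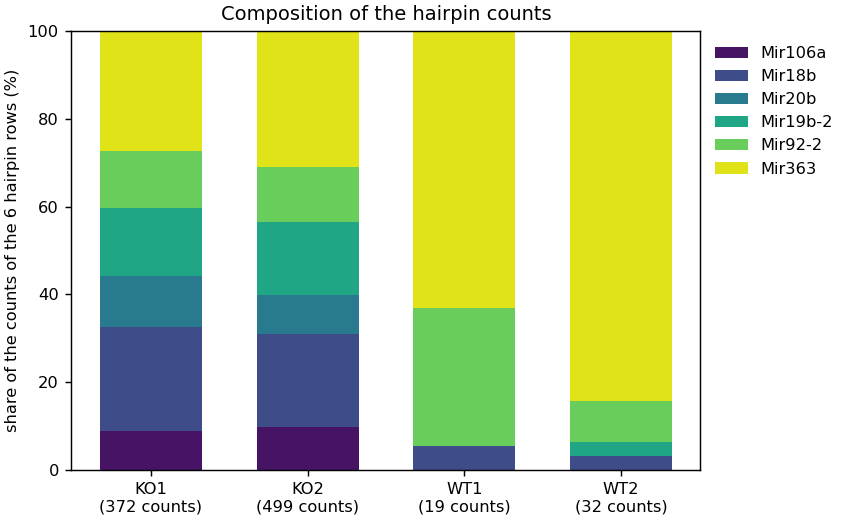
Share of the counts of the 6 hairpins in each library (y axis, percent), stacked in order of transcription from Mir106a at the bottom to Mir363 at the top, with the number of counts under each bar. Mir92-2 and Mir363 make up 40.3% and 43.5% in KO1 and KO2, and 94.7% and 93.8% in WT1 and WT2.

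No such profile could be drawn for miR-17-92, whose hairpins had no counts. The 6 microRNA genes of miR-17-92 are inside the second exon of Mir17hg, and each had 0 counts in all 4 libraries although Mir17hg itself had 1703 to 5906. In the miR-106b-25 cluster, carried by the replication helicase gene Mcm7, Mir93 and Mir25 lie inside an annotated Mcm7 exon and also had 0 counts. Over the whole annotation, 28 of 235 microRNA genes inside an exon of another gene on their strand had any count (11.9%), beside 428 of 1551 outside exons (27.6%) and 40 of 108 partly in one (37.0%), the class of Mir106a. How reads over 2 features were assigned is not given in the sources used here, so a hairpin at 0 inside a host says nothing of its transcript.

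Mir106b, the hairpin of that cluster outside the exons of Mcm7, had 35, 25, 4 and 0 counts in KO1, KO2, WT1 and WT2. Its log2 fold change of 3.93 ± 1.03 did not pass (edgeR adjusted p = 0.0798). Mcm7 averaged 597 ± 2.96 against 441 ± 21.2 CPM (SD, n = 2 each), and its change of 0.44 ± 0.12 did not pass either (edgeR adjusted p = 0.0825). Of the 2 measured genes of this list, 0 were called, and both had an unadjusted p under 0.05, while DESeq2 called 1. Among all 17022 genes tested, 6320 had an unadjusted edgeR p under 0.05 and DESeq2 called 3851.

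The start of Kis2 is shown because Kis2 and the 6 hairpins were all higher in both knockouts, though by different factors. RefSeq and 3 of the 4 annotated transcripts place it at 52744593, and the window of 250 bases before to 50 after it (chrX:52744544-52744843, minus strand, GRCm38.p6) is 63.3% G and C, beside a median of 52.7% over 32851 promoter windows. It holds 15 CpG, beside a median of 7. The GC box GGGCGG, the core of SP1 sites, was searched on both strands and occurs 4 times without overlap, shown in capitals. At least 1 occurrence is present in 35.7% of all windows and at least 4 in 5.49%.
Kis2 promoter window: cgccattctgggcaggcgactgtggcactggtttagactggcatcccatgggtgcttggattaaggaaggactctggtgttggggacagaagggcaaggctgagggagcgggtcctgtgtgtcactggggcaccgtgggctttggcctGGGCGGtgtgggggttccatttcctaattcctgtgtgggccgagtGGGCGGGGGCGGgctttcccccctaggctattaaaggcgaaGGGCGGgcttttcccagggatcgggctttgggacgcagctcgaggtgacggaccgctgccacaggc

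The MYC E-box CACGTG, the CCAAT box and the TATA box TATAAA, on either strand, are not in these letters, and they occur in 7.15%, 37.4% and 13.6% of all windows. Only these exact letters were searched. Variants of them were not, and the window does hold the similar tattaaa, so absence of a TATA-like element is not shown. The window listed for Mir17hg (chr14:115044140-115044439) lies within the miR-17-92 cluster, downstream of the annotated GENCODE start, and is not shown.

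Of 23 annotated genes within 500 kb of Kis2, 8 were tested and 0 were called, with 4 at an unadjusted p under 0.05 and 2 called by DESeq2. The same 2 counts over all 17022 genes tested were 6320 and 3851. As edgeR called 5.45% of all genes, 0 of 8 is near that share and sets the neighbours apart in no way. Both knockouts lay below both wild types for 5 of the 8 and above for 1, beside 34.8% and 36.5% of all genes. The median log2 fold change of the 8 neighbours was -0.56, beside -0.36 for 680 tested genes of chromosome X. It was -0.15 after adjustment for GC content and gene length, and 0.10 over 16 neighbours without the filter on low counts. The nearest tested gene on one side, the pseudogene Gm14586 at 27.4 kb, stood at 478 (KO1), 497 (KO2), 378 (WT1) and 518 CPM (WT2), with overlapping groups, and its reads may come from a parent gene. On the other side Gpc3, which encodes the cell surface proteoglycan glypican 3, lies 129 kb away and had 55.0 and 54.8 CPM against 40.3 and 63.8 CPM, so the groups overlapped. The smallest p belonged to Phf6, a chromatin-associated zinc finger gene, at -1.17 ± 0.19 (edgeR adjusted p = 0.05004).

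The other microRNA genes of that window, 8 in number and including Mir322 and Mir503, did not exceed 0.0676 CPM in any library, the value of 3 counts in KO2. Near Mir17hg none of 4 other annotated genes within 500 kb passed the filter. The nearest tested genes were Tpm3-rs7, 1726 kb away with 79.7 ± 2.20 against 120.6 ± 8.12 CPM, and the glypican gene Gpc6, 1879 kb away with 0.380 ± 0.0589 against 1.29 ± 0.727 CPM (SD, n = 2 each). Neither was called (edgeR adjusted p = 0.0588 and 0.104).

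Genes with the most similar pattern were sought by the distance between centred log2 CPM values over the 4 libraries. Of the hairpins, Mir19b-2 (0.34) and Mir18b (0.37) were closest to Kis2, followed by Mir20b (0.77), Mir106a (0.88), Mir92-2 (2.15) and Mir363 (2.55). Mir17hg was at 4.02. Outside the cluster the 3 closest were the microRNA genes Mir369 (0.48) on chromosome 12 and Mir298 (0.70) on chromosome 2, and ENSMUSG00000100259 (0.74), which has no symbol in the name table. All 3 were closer to Kis2 than 4 of the 6 hairpins were. Mir369 and Mir298, like Mir106a and Mir20b, had 0 counts in both wild types. For such genes the distance depends on the prior count of 2, added before the logarithm, and on the knockout level. The closest to Mir17hg were the transcription factor gene Spic (0.04), the small nucleolar RNA Snora57 (0.04) and the fatty acid-binding protein gene Fabp3 (0.08). Spic stood at 8.07 (KO1), 8.20 (KO2), 2.53 (WT1) and 4.92 CPM (WT2). With 4 libraries, closeness describes these values only.

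Factors that act on the hairpins or on transcription of the clusters moved in both directions. Of 7 proteins acting on primary microRNA hairpins, Dgcr8 rose and Drosha fell, and 5 did not pass, with a list median of -0.51 (-0.06 after adjustment of each library for GC content and gene length, and 0.02 without WT2). Calls higher made up 3.51% and calls lower 1.94% of all genes tested. Dgcr8 averaged 229.9 ± 4.09 CPM in knockouts and 107 ± 9.79 CPM in wild types (SD, n = 2 each), and its fitted change was 1.098 ± 0.13 (adjusted p = 0.0482 by edgeR). Hnrnpa1, which binds the miR-18a hairpin and aids its processing, stood at 294 (KO1), 306 (KO2), 331 (WT1) and 529 CPM (WT2) and did not pass.

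Of 6 transcription factor genes known to drive miR-17-92, Mycn rose and 5 did not pass, where edgeR called 3.51% of all genes higher. Of the 6, 4 had an unadjusted edgeR p under 0.05 and DESeq2 called 4, beside 6320 and 3851 of all 17022 genes. Both knockouts lay above both wild types for 2 of the 6 (36.5% of all genes). They lay below for 2 (34.8% of all genes), E2f2 at -0.77 ± 0.14 and E2f3 at -0.82 ± 0.17. Mycn stood at 155 (KO1), 147 (KO2), 76.3 (WT1) and 60.3 CPM (WT2), and its fitted change was 1.14 ± 0.16 (adjusted p = 0.0482 by edgeR). Myc, the best known activator, had 47.8 and 49.1 CPM against 55.1 and 40.3 CPM, with overlapping groups. The list median was -0.13 and turned to 0.01 with library totals alone, where the median of all genes moved from -0.02 to 0.13.

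Reported targets of the 4 seed families did not move one way. Of 32 tested, 3 rose, 1 fell and 28 did not pass, with a median log2 fold change of -0.33, beside -0.02 for all genes. After the GC and length adjustment the medians were -0.07 and -0.0087. DESeq2 called 14 of the 32 targets and 20 had an unadjusted edgeR p under 0.05. Over all 17022 genes tested, DESeq2 called 3851 and 6320 had an unadjusted edgeR p under 0.05. The edgeR calls made up 3.51% (higher) and 1.94% (lower) of all genes. In the miR-17 family, which holds most of the list with 19 genes, 0 were called by edgeR, 12 had an unadjusted p under 0.05 and 8 were called by DESeq2. The smallest p there was that of the cell cycle activator E2f1 (0.84 ± 0.14, edgeR adjusted p = 0.0502, and -0.13 after the GC and length adjustment).

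Among 6 tested targets with the miR-92 seed, Klf2, a pluripotency factor, rose, and so did the fibronectin receptor gene Itga5. Their fitted log2 changes were 1.41 ± 0.14 and 0.79 ± 0.12 (adjusted p = 0.0482 for both, edgeR). After the GC and length adjustment they were at 0.01 and -0.0005. Socs1, an inhibitor of cytokine signalling with miR-19 sites, rose from 0.802 ± 0.0347 to 2.90 ± 0.397 CPM (1.85 ± 0.29, edgeR adjusted p = 0.0499), 1 of 6 in that list. Atm, the DNA damage kinase and a miR-18 target, fell from 129 ± 10.4 to 60.4 ± 0.466 CPM (-1.099 ± 0.13, edgeR adjusted p = 0.0482), 1 of 3. After the same adjustment Socs1 was at 0.83, Atm at -0.55, and the miR-19 list median turned from -0.36 to 0.25 (-0.13 without WT1). The 7 calls of these lists (Drosha, Dgcr8, Mycn, Klf2, Itga5, Socs1 and Atm) were all lost under that adjustment, with library totals alone, and with either KO1 or KO2 left out.

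**Figure D4:**
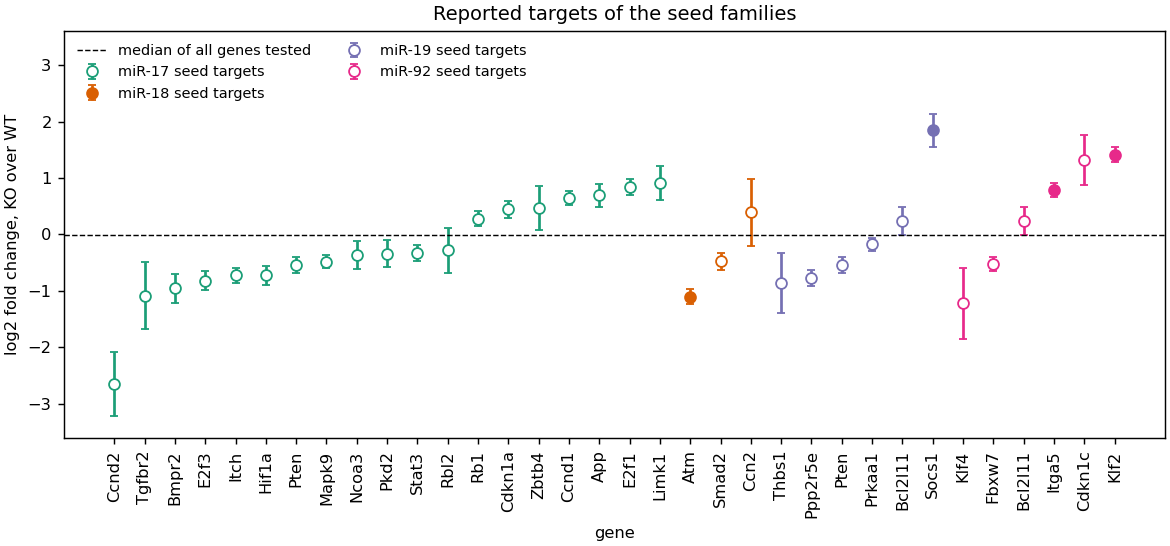
Log2 fold change of knockout over wild type (y axis) of the reported targets of each seed family (x axis, gene), with the standard error of the fit as bars. Filled points passed an edgeR adjusted p under 0.05 (Atm, Socs1, Itga5 and Klf2), and the dashed line marks the median of all genes tested. Points lie on both sides of the line within each family.

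Markers of other cell types also differed between the groups. Of 7 endoderm markers 5 were tested, and Cubn alone was called, as lower (edgeR adjusted p = 0.0482, and 0.0890 after the GC and length adjustment). Calls lower made up 1.94% of all genes. All 5 had both knockouts below both wild types, as did 34.8% of all genes, and their median log2 fold change was -2.76. Of the 5, 4 had an unadjusted edgeR p under 0.05 and DESeq2 called 4. The summed level of the 7 markers was 12.7 to 14.1 CPM in the knockouts and 56.7 to 163 CPM in the wild types, with Afp at 0 in 3 libraries. Of 8 markers of fibroblasts and feeder cells 6 were tested and 0 called (3 at an unadjusted p under 0.05, 2 by DESeq2). Over all 17022 genes tested these 2 counts were 6320 and 3851. The sum of the fibroblast and feeder list was 53.4 to 58.4 CPM against 32.4 to 39.9 CPM. Dcn, Lum and Postn had no count in either wild type. Between KO1 and KO2, Dcn stood at 1.65 and 0.541 CPM, and Thy1, the most abundant of the list, at 40.8 and 41.5 CPM. Of 6 trophoblast markers 3 were tested and Tfap2c rose, with sums of 92.8 to 94.1 against 46.0 to 48.9 CPM. Tfap2c made up most of these sums, at 84.7 (KO1), 83.4 (KO2), 37.8 (WT1) and 41.4 CPM (WT2). Krt7 averaged 5.89 CPM in the knockouts against 2.21 CPM, and Eomes 3.28 against 5.13 CPM, neither called. Elf5 averaged 0.0275 against 0.378 CPM, and Cdx2 and Gata3 did not exceed 0.225 CPM in any library. The part of these cell types in the values of the 8 genes was not tested.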

How the data were processed

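The deposited values are raw read counts per Ensembl gene, 1 file per library, with no normalisation by the authors. Reads were aligned with STAR 2.4.2a and counted with featureCounts 1.4.5-p1 on mm10, per the submitters' processing notes, from a reverse-stranded protocol per the labels. The annotation release and the options for overlapping genes are not given in the sources used here. Coordinates are from GENCODE M21, names from a gene name table (42462 of 43629 identifiers matched) and sequences from RefSeq.

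Counts were fitted with edgeR 4.0.16 in R 4.3.3 (TMM, minimum count 10 and total 15, quasi-likelihood test of group, Benjamini-Hochberg, threshold 0.05). DESeq2 1.42.0 was an alternative. Distances used a prior count of 2. The fit was tested on simulated data. The 8 members and all lists were chosen with earlier results of these data known. Named genes were the members, Drosha, Dgcr8, the nearest tested genes, the 3 most similar to each host, and per list up to 2 called genes each way or else the smallest p. Others named in passing (Hnrnpa1, Myc, E2f2, E2f3, Hprt, Mir322, Mir503, single markers) were chosen after their values were seen. Count intervals are exact binomial (Clopper-Pearson) at 95% and cover counting error only.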

Additional observations from a re-analysis of the deposited data

How the results depend on the processing

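All 8 members kept a fitted change above 0 in each of the 11 alternatives run for them. This is a description, since the members were chosen on this contrast. With 0 counts in both wild types, Mir106a and Mir20b could not change sign in any alternative. Kis2 was at 5.78 and Mir17hg at 1.75 with GC and length trends removed, and leaving out 1 library gave 5.15 to 5.81 and 0.75 to 1.65. The hairpin to Kis2 ratio of knockout over wild type ranged from 0.364 to 0.429 when 1 library was left out, and scaling and filters do not enter it. The Mir17hg ratio of WT2 over WT1 was 1.86 with TMM-scaled sizes. Calls were fragile. Over all genes edgeR called 927, with 0 under library totals alone (6116 at an unadjusted p under 0.05), 0 with trends removed (4259), 2663 without a filter, 3851 with DESeq2 and 0 to 13658 with 1 library left out. With the knockout libraries summed as 1 sample, an alternative added after the data were seen, 0 were called (1888 at an unadjusted p under 0.05). The 7 called genes of the pathway lists became 0, 0, 16, 20, 0 to 42 and 0 in that order. Itga5 turned to -0.0005 with trends removed. Where 1 library was left out, the remaining one of its group was taken to have the spread of the other group. A replicate block gave 1929 calls over all genes, 9 in the lists, 5.47 for Kis2 and 1.19 for Mir17hg, and Itga5 lost its call under it. Deviations of KO1 and WT1 from their group means had a correlation of 0.0461, and the value for KO2 and WT2 is the same by construction. The knockout deviations were small, at 2.26 times sampling noise against 167 times for the wild types. The correlation therefore cannot decide whether the numbers of the titles pair the libraries. Depth limits the wild-type values of the hairpins, which rest on 0 to 27 counts.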

Other observations

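Hprt, a purine salvage gene 243 kb from Kis2 and usually expressed in every cell, stood at 0.940 (KO1), 0.609 (KO2), 1.65 (WT1) and 1.92 CPM (WT2). It was thus low in all 4 libraries, and its fitted change of -1.21 ± 0.36 was not called (adjusted p = 0.0962 by edgeR). C430049B03Rik, a non-coding gene 310 kb from Kis2, stood at 0.648 (KO1), 0.744 (KO2), 0.326 (WT1) and 0.528 CPM (WT2), without a call (edgeR adjusted p = 0.264).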
